A study of Mus musculus with 13 samples.

Results

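The proximal convoluted tubule (PCT) is the first stretch of the nephron after the glomerulus. Its nuclei were taken here as those carrying the label PT in the deposited cluster annotation of the single-nucleus ATAC-seq (snATAC-seq) data, where PT stands for PCT. They numbered 7412 of the 28316 annotated nuclei, and they were compared with the other 12 cell type clusters of that annotation. snATAC-seq cuts open chromatin in isolated nuclei, so that each nucleus gives a set of open peaks. Kidneys were profiled from newborn mice labelled P0 (2 samples), which the protocol calls 1-day-old, and from mice of 3 weeks (P21, 1 sample) and 8 weeks (P56, 2 samples). The P21 and P56 samples are together called adult. The sources used here give no genotype, treatment, strain or sex for these 5 samples, and do not say how many mice each came from. P-values therefore measure the spread between these samples, which may be partly technical. Adult mice were perfused with buffered saline before the kidneys were taken, and the protocol gives no perfusion for the newborn mice.

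PCT cells take back most of the filtered glucose, phosphate, amino acids and bicarbonate through transporters of the brush border and the basolateral membrane, and they degrade filtered protein after endocytosis. They run on fatty acid oxidation and make glucose. Their identity depends on transcription factors such as HNF4A, and the straight part that follows (PST) shares much of this programme but is specialised for organic ion secretion and for the uptake of what the PCT leaves behind.

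In the order P0 sample 1, P0 sample 2, P21, P56 sample 1 and P56 sample 2, which is kept throughout, PCT nuclei numbered 547, 557, 1551, 2459 and 2298. They made up 9.25%, 10.4%, 47.7%, 35.5% and 37.1% of the nuclei of the 13 clusters. The mean share was 9.82% ± 0.812 (SD, n = 2) at P0 and 40.1% ± 6.63 (SD, n = 3) in adult samples, with no overlap between the groups. An exact two-sided permutation test gave p = 0.2, the smallest value that 2 samples against 3 can reach. The median PCT nucleus had 7128, 5420, 5227, 4206 and 7466 open peaks, so the stages overlapped in depth (difference of means −641 peaks, exact permutation p = 0.8). The deposited single-cell RNA-seq annotation is read here as 1 sum a stage with no test. Cells with its PCT label made up 2.72% of cells at P0 and 16.2% in the adult. These shares leave out a separate early proximal tubule cluster, which the snATAC-seq annotation does not have. PST cells outnumbered PCT cells at both stages there, whereas PCT nuclei outnumbered PST nuclei in every snATAC-seq sample. Whether the PCT label covers the same cells in both annotations was not tested.

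Over all clusters the 5 libraries held 166031996 open calls, an open call being 1 nucleus with 1 of the 300755 peaks open, and PCT sums held between 3345160 and 17287332 of them. Each library was a batch of its own, so that library and batch cannot be told apart, and peaks were called on nuclei pooled over samples. In all, 472 barcodes occurred in 2 libraries and 5 in 3, and 253 PCT nuclei (3.41%) had a barcode that another library also held. How doublets were treated is not given in the sources used here.

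The libraries also differed on the sex chromosomes. In PCT nuclei of the P21 sample and of P56 sample 2, no open call was counted over the Y-linked genes Ddx3y, Uty, Eif2s3y and Kdm5d, whereas the other 3 samples had 61, 58 and 142 calls over Ddx3y and 62, 59 and 183 over Uty. Levels over genes are given as a rate in ppm (parts-per-million), the open calls over the gene among all open calls of the cluster's sum in that sample. The rate over Firre, an X-linked locus that makes a long noncoding RNA, was 33.7, 32.6, 351, 19.1 and 297 ppm. Xist, the RNA that coats the inactive X, followed the same split at 3.96, 3.59, 20.9, 4.18 and 17.99 ppm. Thus both P0 samples and P56 sample 1 stood on one side, and the P21 sample and P56 sample 2 on the other. The same split appeared in PST and in the sum of all clusters other than PCT, which includes PST. That sum held 1 call over Ddx3y at P21, which lay in PST. The part of this split in the stage comparison was not tested apart from fits without those 2 libraries.

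**Figure D1:**
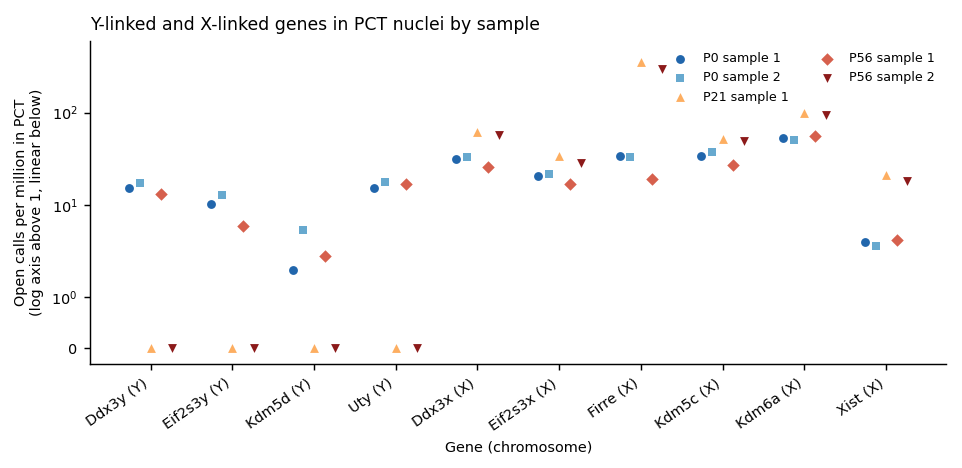
Rate (ppm) over Y-linked and X-linked genes (vertical axis, logarithmic above 1 and linear below) in PCT nuclei, with 1 point for each of the 5 samples. The P21 sample and P56 sample 2 lie at 0 for the 4 Y-linked genes and above the other 3 samples for all 6 X-linked genes, with Firre at 351 and 297 against 19.1 to 33.7.

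The 3 genes by which the cluster is recognised are Slc34a1, which encodes the main sodium-phosphate cotransporter of the PCT brush border, Slc5a2, which encodes the sodium-glucose cotransporter SGLT2, and Hnf4a. They were described through all peaks in the gene and in 20 kb on each side. Coordinates are those of the deposited peaks on mm10 (GRCm38), and genes and elements come from GENCODE M21. The 120 bases upstream of an annotated transcription start that lies in a PCT-leading peak are printed for Slc34a1, for Slc5a2, and for Slc5a12, a lactate transporter of the apical membrane whose start peak is described further on. They are the plus strand, which is also the strand of these genes, and capitals mark letters that match a motif searched here. GCCNNNGGC is the motif of TFAP2 factors and TGANTCA that of AP-1.
Slc34a1 (chr13:55399573-55399692): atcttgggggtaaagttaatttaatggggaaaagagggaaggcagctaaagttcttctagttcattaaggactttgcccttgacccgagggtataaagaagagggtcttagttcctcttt
Slc5a2 (chr7:128265537-128265656): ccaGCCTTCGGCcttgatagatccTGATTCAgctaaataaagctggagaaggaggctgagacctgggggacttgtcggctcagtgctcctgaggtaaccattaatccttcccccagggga
Slc5a12 (chr2:110597178-110597297): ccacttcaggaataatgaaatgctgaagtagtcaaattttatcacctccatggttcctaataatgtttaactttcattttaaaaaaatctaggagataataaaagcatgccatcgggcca
The windows of Slc34a1 and Slc5a12 held 41.7% and 33.3% G and C, that of Slc5a2 54.2%. Only the Slc5a2 window held a match, 1 to TFAP2 and 1 to AP-1, and that other windows held none says only that these letters are not in them. The TFAP2 match crosses the edge of the Slc5a2 start peak, which begins at base 128265545. Outside its printed window, the start peak of Slc34a1 held 1 TFAP2 match.

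Slc34a1 (ENSMUSG00000021490.11, chr13:55398187-55415592) had 15 peaks, of which 6 met the rule for PCT-leading peaks given further on. The peak over the start of its transcript Slc34a1-201, chr13:55399480-55400242, was open in 31.99%, 29.4%, 44.5%, 22.5% and 50.6% of PCT nuclei, against a mean of 10.4% of PST nuclei. The stages overlapped on this scale of shares, the lowest value being that of P56 sample 1, which had the fewest open peaks per nucleus. On the rate scale, which divides by all open calls of the sum, the peak rose in the adult (log2 fold change, adult minus P0, 0.69 ± 0.24 (SE), adjusted p = 0.0407), a call that was lost when any 1 sample other than P56 sample 1 was left out. A second peak over an internal start and coding sequence, chr13:55408096-55409319, stood further from the other clusters. It was open in 18.5%, 13.6%, 40.2%, 23.7% and 45.2% of PCT nuclei, against a mean of 3.78% of PST nuclei, and it rose by 1.54 ± 0.23 (adjusted p = 0.000325), with no overlap between stages. The widest open peak lay over the 3′ end, shared with the neighbouring gene Pfn3 (chr13:55414425-55415969), at 59.2%, 54.4%, 66.1%, 46.8% and 70.1% of PCT nuclei and 12.1% of PST nuclei. Its change between stages, 0.47, did not pass the test (adjusted p = 0.105).

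Upstream of the gene, the data showed a different pattern. The distal peaks chr13:55391562-55392335 and chr13:55390651-55391278 were open in a mean of 39.4% and 29.8% of PST nuclei, close to the 27.3% to 58.4% and 17.5% to 46.95% of PCT nuclei over samples. Inside the gene, the intronic peak chr13:55405437-55405994 was not PCT-leading, with a mean rate of 45.9 ppm in immune cells and 20.1 ppm in PCT. The Slc34a1 locus therefore held PCT-leading peaks among those inside the gene and, 5′ of it, 2 peaks open in both segments. Of 14 of its peaks tested between stages, 9 were higher in the adult and 0 at P0 by edgeR, where 16.3% of all peaks tested were higher in the adult and 17.6% at P0. Without both the P21 sample and P56 sample 2, 4 of the 9 were called, the internal peak from 55408096 among them and the start peak not.

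Slc5a2 (ENSMUSG00000030781.13, chr7:128265657-128272430) had 12 peaks, 3 of them PCT-leading and all 3 within the first part of the gene. Its start peak, chr7:128265545-128266004, was open in 5.85%, 6.46%, 15.7%, 8.30% and 17.5% of PCT nuclei and in 1.22% of PST nuclei. Each adult sample lay above both P0 samples, and the peak rose by 1.499 ± 0.27 (adjusted p = 0.00109). The next peaks along the gene rose further, chr7:128266247-128266643 by 2.02 and chr7:128267212-128267893 by 2.37 (adjusted p = 0.000167). The latter was open in 2.93% and 1.62% of PCT nuclei at P0 and in 9.09%, 5.98% and 12.5% in the adult. Of 9 peaks tested, 4 were higher in the adult and 1 at P0, where 16.3% and 17.6% of all peaks were. The 4 include a peak in the neighbouring gene Tgfb1i1 (chr7:128252613-128253164). The 1 higher at P0 lay in another neighbour, BC017158.

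Hnf4a (ENSMUSG00000017950.16, chr2:163506808-163572910) had 34 peaks and none was PCT-leading, while 7 met the rule for peaks of PCT and PST together. The peak over its upstream start was open in 2.36% of PCT nuclei on average, whereas an intronic peak, chr2:163540577-163541451, was open in 32.7%, 30.5%, 44.04%, 25.4% and 54.7% of PCT nuclei and in 43.9% of PST nuclei. Further in the gene, chr2:163546909-163547539 was open in 12.7% to 37.99% of PCT nuclei over samples and in 27.6% of PST nuclei. These values did not set PCT apart from PST. The intronic peak rose by 0.72 between stages (adjusted p = 0.0259), and of 29 peaks tested 6 were higher in the adult and 4 at P0, shares near the 16.3% and 17.6% of all peaks tested. All 6 lay inside Hnf4a, while the 4 lay outside it, at the neighbouring gene R3hdml and past the 3′ end. The study named the cluster by markers that include Slc34a1 and Slc5a2, so that their openness in PCT nuclei is no independent check of the label. The call of the intronic peak was lost when any 1 sample other than P56 sample 1 was left out, and without both the P21 sample and P56 sample 2 it and 2 more of the 6 peaks were no longer called.

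**Figure D2:**
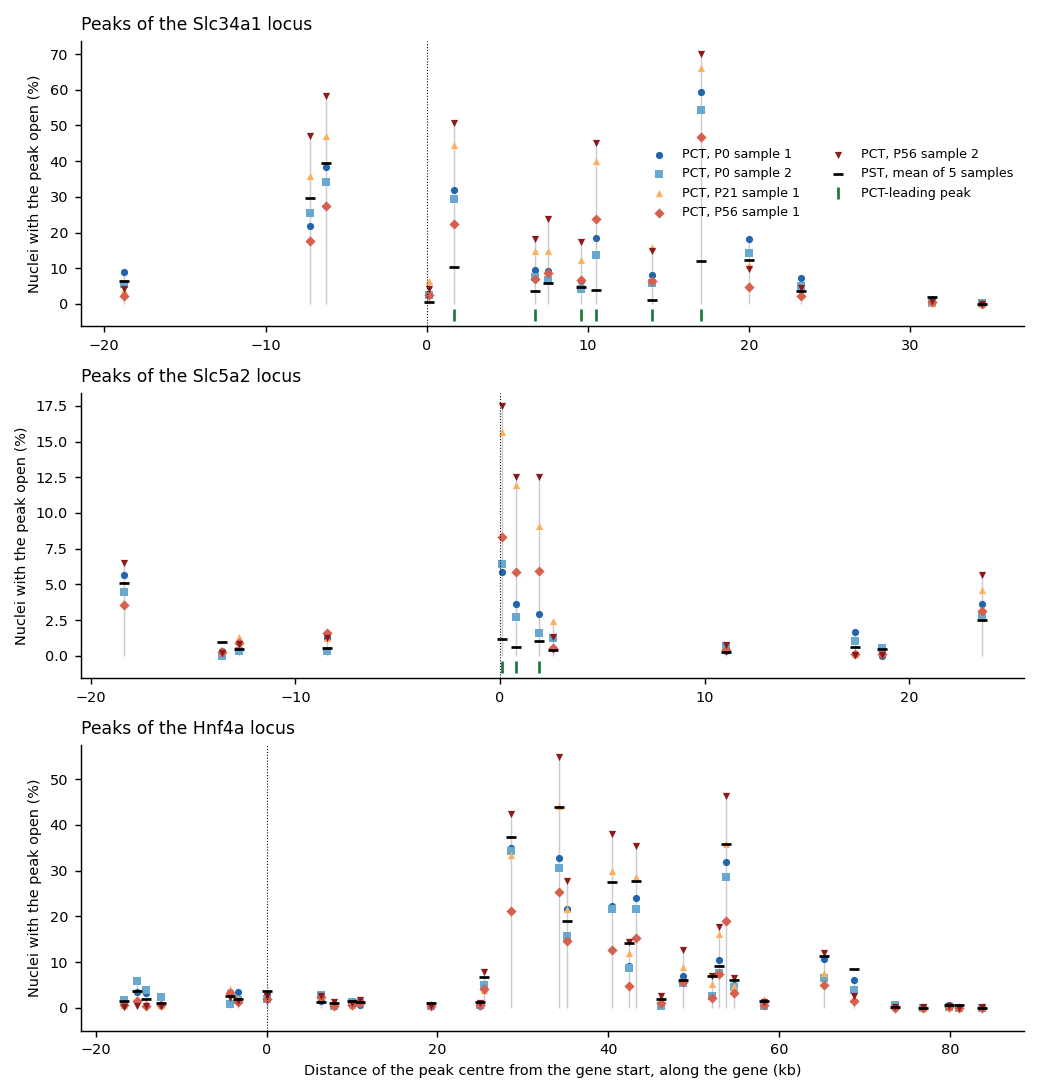
Share of PCT nuclei (%) with each peak of the Slc34a1, Slc5a2 and Hnf4a loci open (vertical axis), by distance of the peak centre from the gene start in kb (horizontal axis), with 1 coloured point for each of the 5 samples, a black bar for the mean of PST nuclei and a green tick under PCT-leading peaks. The 6 leading peaks of Slc34a1 and the 3 of Slc5a2 lie at the genes, with PST at 10.4% and 1.22% in the start peaks, while at the tall Hnf4a peaks the PST bar lies among the PCT points.

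PCT-leading peaks were defined over all peaks as those whose rate was higher in PCT than in each of the other 12 clusters in all 5 samples, with a mean rate at least 2 times that of the next cluster, and open in at least 5% of PCT nuclei. The clusters were made from the open chromatin of the same nuclei, so that this is a description without a test. There were 1485 such peaks, 4.79% of the 30973 peaks open in at least 5% of PCT nuclei. A further 654 peaks met the lead and the ratio but were open in fewer nuclei, and 3453 peaks open in at least 5% of PCT nuclei led in all 5 samples without regard to the ratio. The ratio to the next cluster had a median of 2.76 and reached 8.65, and the peaks nearest to the limits had ratios of 2.00 on both sides and shares of 5.00% on both sides.

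PST was the next cluster for 893 of the 1485 peaks (60.1%), followed by stroma 1 for 143 and podocytes for 142. Peaks in which PCT and PST together led the other 11 clusters by the same margin were more numerous, at 3226 or 10.4% of the peaks open in at least 5% of PCT nuclei. Introns held 50.5% of PCT-leading peaks, intergenic (distal) sequence 24.9%, exons 19.7% and the 5 kb upstream of genes 4.92%. Over all 300755 peaks these shares were 46.7%, 31.6%, 16.8% and 4.92%, and over the peaks open in at least 5% of PCT nuclei 30.5%, 15.8%, 49.3% and 4.42%. A transcription start was overlapped by 6.87% of PCT-leading peaks, 7.43% of all peaks and 40.1% of those open in at least 5% of PCT nuclei. Slc4a4, which encodes the basolateral sodium-bicarbonate cotransporter NBCe1, held the most with 9 peaks. Xylt1 followed with 7, then Maf, Ndrg1 and Slc34a1 with 6 each.

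These peaks took up 2.08% and 2.08% of the open calls of PCT nuclei at P0 and 3.12%, 3.02% and 3.19% in the adult samples. Their rule used these same nuclei, with means over 3 adult and 2 P0 samples, so nothing is read from the difference between stages. In PST these peaks took up 0.786% to 0.978% over samples. In stroma 1 they took up 0.146% and 0.167% at P0 and 1.04%, 0.347% and 0.796% in the adult samples, where it held 90, 107 and 101 nuclei. The values of stroma 1 were higher in the libraries with a larger share of PCT nuclei, and the part of that share in them was not tested.

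**Figure D3:**
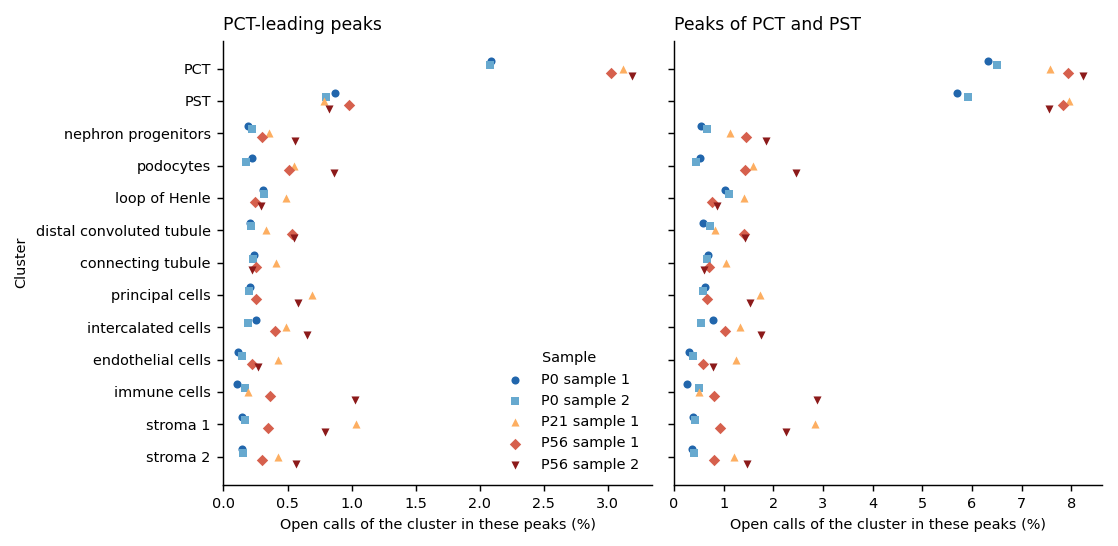
Percentage of the open calls of each of the 13 clusters (rows) that fell (horizontal axis) in PCT-leading peaks (left) and in peaks led by PCT and PST together (right), with 1 point for each of the 5 samples. PCT lies at 2.08% to 3.19% on the left and PST at 0.786% to 0.978%, and PCT and PST lie at higher percentages than the other 11 clusters in the right panel.

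Among PCT-leading peaks open in at least 10% of PCT nuclei, the start peak of Slc5a12 had the largest ratio, 7.47 (chr2:110597010-110597663, with the upstream sequence given above). It was open in 18.3%, 12.6%, 31.01%, 16.4% and 33.1% of PCT nuclei and in 2.03% of PST nuclei. An intron of Slc4a4 followed (chr5:89095967-89096968, ratio 7.44), open in 7.56% to 15.5% of PCT nuclei over samples, and then coding sequence and 3′-UTR of Iqcd, which overlaps Rita1 (chr5:120594294-120595044, ratio 7.35). An intron of Dleu7 (chr14:62291457-62292108, ratio 7.23), 807 bp from the start of Rnaseh2b, was open in 12.1% and 10.2% at P0 and in 23.7%, 15.1% and 26.98% in the adult, and rose by 1.34 ± 0.21 (adjusted p = 0.000572).

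The Rhobtb1 intron peak (chr10:69152966-69153564, ratio 6.86) went the other way. It was open in 26.7%, 22.3%, 15.4%, 8.78% and 7.75% of PCT nuclei, with all P0 values above all adult values, and it fell by 0.80 on the log2 scale (adjusted p = 0.0485), a call that was lost without either P0 sample or without P56 sample 2. The other 5 of the 10 were an intron of Asl, which encodes the urea cycle and arginine enzyme argininosuccinate lyase (ratio 6.80), peaks nearest to Mup5 (6.72) and Adam29 (6.44), coding sequence of the chloride transporter gene Clcn6 (6.43) and an intron of the zinc finger gene Bnc2 (6.33). The Adam29 peak lay 429226 bp from that gene.

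The motif CAAAGTCCA, a motif of HNF4 factors, was searched on both strands in the central 300 bp of every peak. It was found in 3.70% of PCT-leading peaks, in 5.11% of peaks of PCT and PST, in 1.92% of all peaks open in at least 5% of PCT nuclei, and in 0.802% of the 300693 peaks on assembled chromosomes. Among peaks that overlapped no gene start, the shares were 3.83%, 5.17% and 2.75% for the first 3 sets. AP-1 (TGANTCA) was found in 13.3% of PCT-leading peaks and 10.5% of all peaks, and the ETS motif CCGGAAGT in 0.135% and 0.601%. Median G and C content was 47.7% in PCT-leading peaks and 46.7% in all peaks. The shares are descriptions of letters, not of bound factors.

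Of 665 PCT-leading peaks open in at least 10% of PCT nuclei, 24 had a central match to the HNF4 motif. To show what such elements look like, 60 bases around the match are printed for the 6 with the largest ratios whose printed bases lie outside exons, on the plus strand, with the match in capitals. TGGACTTTG is the same motif read on the minus strand.
Nos1ap intron (chr1:170538936-170538995): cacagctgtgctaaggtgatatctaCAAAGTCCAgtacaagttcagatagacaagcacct
Distal, nearest gene Mocs2 (chr13:114802035-114802094): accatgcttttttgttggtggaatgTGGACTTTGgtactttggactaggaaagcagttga
Distal, nearest gene Maf (chr8:115831940-115831999): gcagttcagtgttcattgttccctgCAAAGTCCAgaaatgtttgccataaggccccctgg
Distal, nearest gene Ppp2r5c (chr12:110424456-110424515): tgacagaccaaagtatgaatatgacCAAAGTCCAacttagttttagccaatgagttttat
Tbc1d1 (chr5:64264025-64264084): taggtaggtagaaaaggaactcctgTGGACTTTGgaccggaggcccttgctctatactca
Slc2a2 intron (chr3:28699798-28699857): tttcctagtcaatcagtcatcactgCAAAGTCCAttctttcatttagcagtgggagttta
The Nos1ap peak was open in 11.05% of PCT nuclei with a ratio of 5.49, the Mocs2 peak in 14.4% (4.44), the Maf peak in 13.2% (4.23), the Ppp2r5c peak in 11.6% (3.73) and the Tbc1d1 peak in 12.2% (2.96). The peak in Slc2a2, which encodes the glucose transporter GLUT2 of the basolateral membrane, was open in 19.997% (2.77).

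Gene activity was the sum of open calls over all peaks in a gene and its 2 kb upstream, given as the rate in ppm. By the same rule, with a mean of at least 50 calls over the 5 PCT sums, 54 genes were PCT-leading, and a gene low at P0, such as Cyp2e1, passed this mean through its adult sums. PST was the next cluster for 31 of them. Among the 10 with the largest ratios, Slc5a12 (ratio 4.80), Slc5a2 (4.69) and Slc34a1 (3.57) are transporters, Cyp2e1 (5.26), Ugt2b38 (5.63), Ugt2b34 (3.98) and Ces2f (3.39) are enzymes of drug and lipid metabolism, and Prodh2 (4.201) is a mitochondrial enzyme that breaks down hydroxyproline. Nepn (5.37) and Pfn3 (4.84) completed the 10, and the peak summed for Pfn3 was the one at the 3′ end of Slc34a1. The Cyp2e1 rate in PCT was 4.45 and 4.19 at P0 and 24.5, 27.4 and 22.4 in the adult, whereas the mean in PST was 3.16. The Slc5a2 rate was 18.6 and 20.03 ppm at P0 and 66.6, 47.2 and 58.2 in the adult.

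Within PCT nuclei, the change from P0 to adult was tested over samples. Genes were grouped in lists by known role, and counts are read against the whole table, in which 12.8% of the 26840 genes tested were higher in the adult and 15.6% at P0, with a median log2 fold change of 0.02. In each of the 3 lists of proximal transport genes more members rose than fell. Of 15 genes of glucose, phosphate, sodium and bicarbonate transport, 12 rose and 0 fell (median 0.49). Of 15 amino acid transport genes tested, 13 rose and 0 fell (median 0.55), and of 17 organic ion transport genes 9 rose and 1 fell (median 0.44). In 4 of the organic ion genes both P0 samples lay above all adult samples. Of all 26840 genes tested, 10310 had both P0 samples above all adult samples and 4869 below them. These counts use rates without the scaling of the test.

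Slc13a1, the sodium-sulfate cotransporter, changed most among the first group. Its rate was 24.7, 20.3, 94.8, 96.1 and 121 ppm, a rise of 2.34 ± 0.18 (adjusted p = 0.000124). Slc5a2 rose by 1.71 (adjusted p = 0.000391), Slc5a12 by 1.099 (0.000765), Slc4a4 by 0.87 (0.00082), and Slc34a1 by 0.82 from 197 and 207 to 366, 284 and 325 (0.00135). For each of these genes all adult samples lay above both P0 samples. The Slc4a4 change depended on the window: counted only around its start it was −0.19.

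Among amino acid transporters, Slc16a10, which exports aromatic amino acids, rose from 113 and 109 to 229, 195 and 210 (1.07 ± 0.11, adjusted p = 0.00033). Slc36a1 (0.88), Slc7a8, a basolateral exchanger of neutral amino acids (0.84), and Slc6a20b (0.98) also rose. Of organic ion transporters, Slc22a4, the carnitine and ergothioneine transporter gene, rose by 1.26, Slc17a1 by 0.99 and the efflux pump gene Abcc4 by 0.84. Slc22a7, which encodes the organic anion transporter OAT2, was the exception, at 37.6 and 44.5 at P0 and 12.5, 11.2 and 8.16 in the adult. It fell by 1.83 (adjusted p = 0.000465), with no overlap between stages.

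Of 12 endocytosis genes 4 rose and 1 fell (median 0.38), with the lysosomal proteases Ctsb (0.82) and Lgmn (0.62) and the motor gene Myo6 (0.43) higher in the adult, and Ocrl, a phosphoinositide phosphatase gene on the X chromosome, lower (−1.01). Lrp2, which encodes the receptor megalin, had rates of 297 and 308 at P0 and 409, 283 and 438 in the adult and did not pass (0.45, adjusted p = 0.0671). Cubn, the cubilin gene, did not either (0.32, adjusted p = 0.0648).

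Of 13 brush border enzyme genes 3 rose and 1 fell (median −0.11). In 8 of them both P0 samples lay above all adult samples and in 4 below them, against 10310 and 4869 of all 26840 genes tested. Treh, the trehalase gene, rose by 1.29, Slc3a1, the heavy chain of the cystine transporter, by 0.59 and Enpep by 0.47. Mep1b, which encodes a meprin protease subunit, fell from 37.9 and 39.2 at P0 to 7.12, 11.8 and 6.31 in the adult (−2.06 ± 0.26, adjusted p = 0.000771). Of 13 genes of gluconeogenesis and ammonia production 5 rose and 1 fell (median 0.25). The gluconeogenic genes Pck1 (0.63) and G6pc (0.64) and Glud1 (0.56) rose, while Slc38a3, a glutamine transporter gene, fell from 61.9 and 66.7 to 15.3, 21.1 and 24.6 (−1.50 ± 0.20, adjusted p = 0.000855).

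Metabolic genes rose more often than they fell. Of 21 genes of fatty acid oxidation and peroxisomes 7 rose and 0 fell (median 0.28), among them Acsm2, an acyl-CoA synthetase gene (1.33), Cyp4a14 (1.06), the catalase gene Cat (0.98) and Ppara, the nuclear receptor that drives this pathway (0.94). Of 15 genes of vitamin D and amino acid metabolism 7 rose and 0 fell (median 0.37). Miox, the first enzyme of inositol breakdown, rose by 1.09. Hgd (0.69) and Hpd (0.99), both of tyrosine breakdown, rose as well. Gldc, the glycine cleavage gene, rose by 1.99, and its adult samples were far apart, at 122 at P21 and 172 and 300 at P56.

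Of 16 proximal tubule transcription factor genes 10 rose and 0 fell (median 0.48). Nr1h4, the bile acid receptor gene FXR, rose from 105 and 98.1 to 196, 218 and 222 (1.21 ± 0.12, adjusted p = 0.000309), and Cebpa rose by 0.99 and Trps1 by 0.75. Hnf4a rose by 0.50 ± 0.13 (adjusted p = 0.0192), with rates of 307 and 338 at P0 and 453, 344 and 449 in the adult, the lowest adult sample only just above the higher P0 sample. Without the P21 sample and P56 sample 2 the change was 0.24. Bhlhe41, a clock-linked repressor gene that lies among the 5 smallest p-values of this list and was singled out after its values were seen, rose by 1.62.

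Of 21 nephron progenitor and early nephron genes 6 rose and 7 fell (median −0.30). Heyl, a Notch target gene, fell from 41.1 and 44.8 to 11.4, 14.5 and 8.85 (−1.76, adjusted p = 0.000638) and Wnt4, the signal that starts nephron formation, changed by −1.503. Hes1, another Notch target, rose by 1.29 and Sall1 by 1.03. Six2, which marks nephron progenitors, had rates from 2.02 to 4.70 over samples and did not pass (adjusted p = 0.246). Of 9 proliferation genes 1 rose and 0 fell, namely Top2a (0.58). Of 9 injury genes tested 1 rose and 3 fell (median −0.33), with Spp1 up (0.80) and Cd44 (−2.12), Krt18 (−1.33) and Krt8 (−0.50) down.

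Of 15 marker genes of PCT and early proximal tubule used for annotation, 8 rose and 1 fell (median 0.45). They come from published marker lists that the study used to label its clusters. Sult1d1 rose by 1.19 and Pdzk1, a brush border scaffold gene, by 0.59, and Hdc, which makes histamine, fell by 0.73. Of 9 PST marker genes 3 rose in PCT nuclei and 0 fell (median 0.56). Cyp4b1 rose from 18.1 and 17.6 to 75.8, 91.0 and 109 (2.51 ± 0.21, adjusted p = 0.000141), Slc7a13 by 1.29 and Slc13a3 by 0.61.

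Marker genes of other cell types were open to some degree in PCT nuclei, more so at P0. The summed rate of 8 endothelial markers was 118 to 119 at P0 and 53.8 to 66.4 in the adult, that of 7 stromal markers 108 to 110 and 53.0 to 60.2, that of 6 immune markers 33.2 to 34.6 and 14.96 to 15.97, and that of 6 podocyte markers 289 to 299 and 218 to 235. Loop of Henle markers (5) stood at 81.4 to 88.2 and 40.1 to 49.2, principal cell markers (6) at 96.8 to 98.7 and 81.2 to 83.8, and intercalated cell markers (6) at 87.9 to 89.6 and 40.5 to 62.8. Distal and connecting tubule markers (7) went the other way, from 222 to 225 at P0 to 321 to 366 in the adult. These ranges did not overlap between stages for any of the 8 lists. They are rates without the scaling of the test, whose factors were 1.07 and 1.06 at P0 and 0.974, 0.971 and 0.929 in the adult. On the same unscaled rates, 10310 of all 26840 genes tested had both P0 samples above all adult samples and 4869 below them.

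By the test, 4 of 8 endothelial genes fell and 0 rose (Egfl7, Flt1, Plvap and Cldn5, −0.86 to −1.37, list median −0.96), as did 2 of 6 stromal genes tested (Pdgfrb −1.33 and Fbln5 −1.26, median −0.81), 2 of 4 immune genes tested (Cd74 and Ptprc, both −1.16, median −0.97), 2 of 6 podocyte genes (Nphs1 −1.33 and Podxl −0.67, median −0.27) and 2 of 5 intercalated cell genes (Atp6v0d2 −0.84 and Atp6v1g3 −1.64, median −0.67). Of 5 loop of Henle genes 1 fell (Cldn19, −2.44) and 1 rose (Umod, 0.90; median −0.47), and of 6 principal cell genes 1 fell (Gata3, −1.14) and 1 rose (Fxyd4, 2.50; median −0.16). Of 7 distal and connecting tubule genes 3 rose (Slc12a3 1.05, Slc8a1 0.73 and Wnk4 0.64) and 0 fell (median 0.06). Of the immune markers C1qb was at 0 in 3 of the 5 PCT sums and at no more than 0.0929 ppm, while Cd74 had 16.8 and 15.2 ppm at P0 and 6.13, 4.83 and 8.39 in the adult. The part of other cell types in the genes higher at P0 was not tested.

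**Figure D4:**
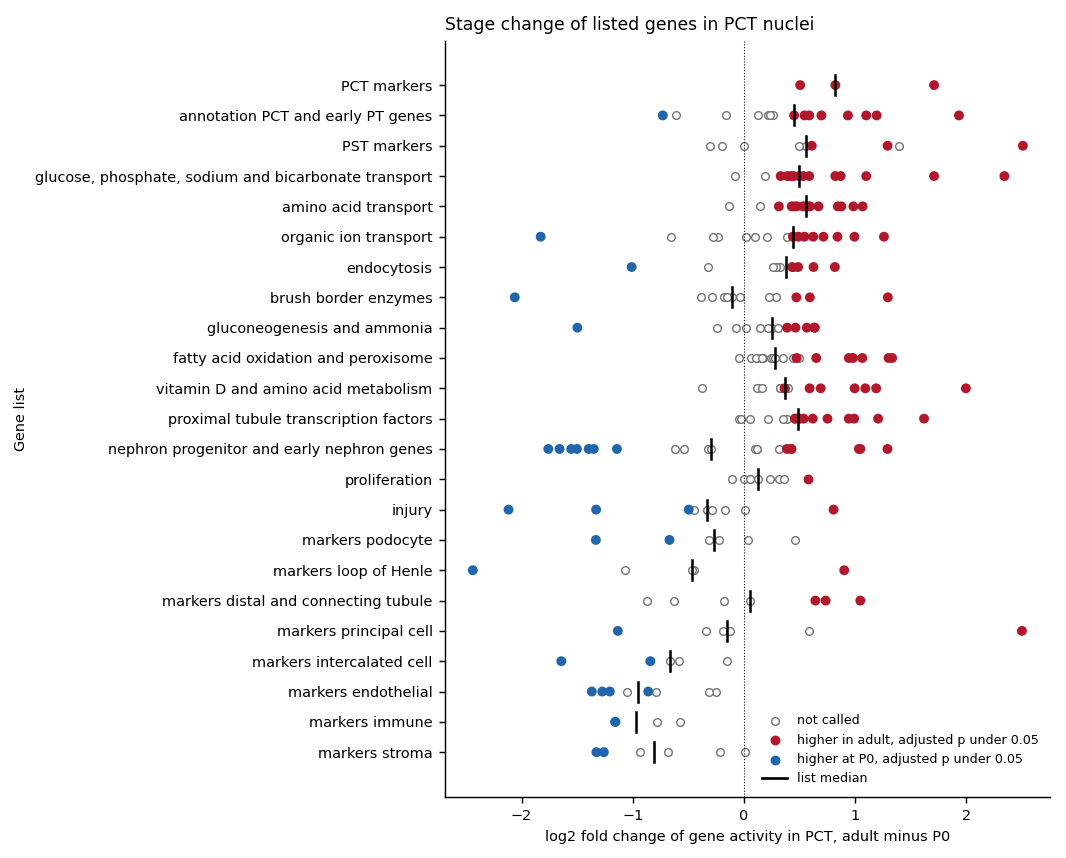
Log2 fold change of gene activity in PCT nuclei, adult minus P0 (horizontal axis), for each gene of 23 lists (vertical axis), with filled red points higher in the adult and filled blue points higher at P0 at an adjusted p under 0.05, open points not called, and a black bar at the list median. The transport lists lie to the right with medians of 0.44 to 0.55, and the endothelial, immune and stromal lists lie to the left with medians of −0.81 to −0.97.

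Over all genes, those with the largest changes and a mean of at least 50 calls per sum at the higher stage were also taken, so that single sums can hold fewer. Cyp3a44, a cytochrome P450 gene, had 0 open calls in both P0 sums and 169 in the adult sums, at least 11.2-fold higher against a floor of 3 calls over the group, and Klk1b16 had 0 and 174 (at least 11.5-fold). Olfr1346 had 3 and 547 calls, Ces2a 2 and 302, and Slc22a26 2 and 210. The adult samples were far apart for Klk1b16, at 1.42, 4.46 and 6.54 ppm, and for Slc22a26, at 0.548, 3.997 and 9.37. Acnat2, a peroxisomal acyltransferase gene, rose from 2.72 and 2.09 ppm to 23.9, 25.1 and 29.7. H1fnt, Dppa3, Nat8f3 and Cilp completed the 10. Their rates were 0.598 to 3.89 at P0 and 7.88 to 39.1 in the adult. Of the 10, Klk1b16 had a higher mean rate in the connecting tubule than in PCT (ratio 0.685). H1fnt (0.626), Dppa3 (0.802) and Slc22a26 (0.876) had a higher mean rate in PST, and the others were highest in PCT. The paralogs of the Cyp3a, Ces2, Slc22, Klk1b and Nat8 families share sequence, so that their separate values are uncertain.

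At P0 the largest difference was in Selplg, a leukocyte ligand gene (14.6 and 14.9 against 0.767, 1.12 and 0.289, log2 fold change −4.28). Muc5b was next (24.004 and 17.04 against 1.86, 2.23 and 0.926, −3.53). Krt7, a simple-epithelium keratin gene, stood at 40.3 and 48.4 against 4.38, 5.48 and 3.53 (−3.18 ± 0.23, adjusted p = 8.37e-05). F10, Kcnj5, Fbxo27, Susd5, Samd11, Msl3l2 and Tbxa2r followed with log2 fold changes of −2.57 to −2.79. Without the P21 sample and P56 sample 2 the change of Susd5 was −1.65. Another cluster had a mean rate above that of PCT for all 10, with ratios of PCT to the highest other cluster of 0.0588 to 0.888. That cluster was PST for Muc5b and Susd5, while Selplg had 39.2 ppm in immune cells, Tbxa2r 114 in endothelial cells and Krt7 111 in the connecting tubule, against 6.34, 6.69 and 20.4 in PCT.

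At the level of single peaks, 18814 were higher in the adult and 20408 at P0 of 115761 tested. The balance between the directions turned under other settings, with 33374 and 17385 without a filter on low counts and 23809 and 18897 without the P21 sample and P56 sample 2. Of the 1485 PCT-leading peaks 849 were higher in the adult and 30 at P0 (57.2% and 2.02%). Their rule averaged over 3 adult and 2 P0 samples and so used these values, and the counts are a description from which nothing is read. The same holds for the next sets, whose rules have the same 5% limit. Of all 30973 peaks open in at least 5% of PCT nuclei, 27.3% and 5.70% were called, and of peaks of PCT and PST 1263 and 103 of 3226. Of peaks over a transcription start 8.997% were higher in the adult and 12.7% at P0, and of other peaks 17.6% and 18.6%, a difference that was not tested. The HNF4 motif lay in the centre of 2.59% of peaks higher in the adult, 1.04% of those higher at P0 and 1.46% of all peaks tested.

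Individual peaks went from almost closed to open. A peak inside Frmd4b that also overlaps Gm19653 (chr6:97449869-97450347) was open in 0.183% and 0% of PCT nuclei at P0. In the adult it was open in 14.8%, 11.8% and 20.8%. An intron of Cyp4b1 (chr4:115645407-115645999) was open in 0.183% and 0.180% at P0 and in 20.95%, 17.6% and 33.99% in the adult. Both were open in PST as well, at means of 9.58% and 11.9%. A distal peak nearest to Car1 (chr3:14832836-14833322) reached 14.2%, 12.04% and 16.9% in adult PCT from 0.366% and 0%, and had a mean of 1.28% in PST. A peak over the start of a noncoding transcript, nearest coding gene Htr7 (chr19:35759674-35760279), went from 0.183% and 0.359% to 6.90%, 9.72% and 17.9%. The fifth lay in Firre on the X chromosome (chrX:50572109-50573184), at 0.183%, 0%, 17.99%, 0.122% and 20.6%, and its call rests on the P21 sample and P56 sample 2.

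In the other direction, a peak nearest to Rab3gap1 (chr1:127950076-127950697) was open in 10.1% and 10.2% of PCT nuclei at P0 and in 0.0645%, 0.122% and 0.087% in the adult, a log2 fold change of −6.25 ± 0.43 (adjusted p = 1.16e-05). A 5′-UTR peak of the potassium channel gene Kcnn1 (chr8:70861621-70861963) went from 19.9% and 16.7% to 0.516%, 0.447% and 0.087% (−5.31 ± 0.44). A peak nearest to Cops8 (−5.75), an intron of Unc5cl (−5.61) and the start of Git2 (−5.58) completed the 5. All of these were also open in PST at P0, for example the Rab3gap1 peak in 28.9% and 25% of PST nuclei.

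Leaving out the P21 sample and P56 sample 2, which lacked calls on Y-linked genes, left 1 adult sample, assumed to vary like the P0 samples. Then 23809 peaks were higher in the adult and 18897 at P0. Of the 18814 peaks higher in the adult in all samples 16366 were called again, and of the 20408 higher at P0 13383. Of these sets 17266 and 15734 could be fitted, and 17265 and 15734 kept their sign. The fit reused both P0 samples and P56 sample 1. Of the called peaks, 18527 and 20404 had no overlap between stages over all samples. The sign was therefore largely set beforehand and is no separate check. The fits against PST and the loop of Henle without those 2 libraries reuse samples in the same way. For genes the counts were 5855 and 5607, with 3248 of 3434 and 3635 of 4193 called again. Of the lists, 11 of 15 glucose, phosphate, sodium and bicarbonate genes and 13 of 15 amino acid genes were then higher in the adult, and 0 lower in both. Calls rose over all genes in this fit, which tested 25521, so that gains within a list are not read as its own. The counts of other lists changed more. The genes called higher in the adult went from 3 to 6 of 9 PST markers, from 1 to 3 of 9 proliferation genes and from 0 to 1 of the podocyte markers. Those called higher at P0 went from 1 to 3 of the annotation genes of PCT and early proximal tubule, from 4 to 6 of 8 endothelial markers, from 1 to 2 in each of the organic ion, endocytosis and brush border lists, from 0 to 2 of the transcription factor genes, from 0 to 1 in the fatty acid, vitamin D and proliferation lists, and from 2 to 1 of the intercalated cell markers. The medians of the 3 transport lists were then 0.30, 0.42 and 0.23 and that of endocytosis 0.19, and the median of the principal cell markers turned from −0.16 to 0.21. The medians also went from 0.06 to 0.51 for distal and connecting tubule markers, from −0.30 to −0.11 for nephron progenitor genes, from −0.33 to −0.15 for injury genes, from −0.81 to −0.44 for stromal markers and from 0.37 to 0.24 for the vitamin D list. Of the listed genes named with a called change, Atp6v1g3 and Ptprc were no longer called (adjusted p = 0.144 and 0.102), and the change of Slc2a2 went from 0.49 to 0.23, that of Glud1 from 0.56 to 0.26, that of Top2a from 0.58 to 0.37, that of Spp1 from 0.80 to 0.51 and that of Ccnd1 from 1.05 to 0.65. Leaving out P0 sample 1 gave 13129 peaks and 1499 genes in all, and leaving out P0 sample 2 gave 15127 and 1624.

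The single P21 sample lay below both P56 samples at 34.9% of all peaks tested and above both at 29.3%. At the median of these peaks it had moved 90.0% of the way from P0 to P56, with no replicate for P21. Among peaks called higher at P56 than P0 in a fit without it, the median was 74.4%. There it lay below both P56 samples at 57.4% and above both at 13.8%. Among peaks called higher at P0 the median was 94.9%, with 22.9% below both and 47.0% above both. These sets were chosen by their P0 and P56 values.

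PCT was next compared with its neighbour PST, which shares its samples. The interaction of stage and segment, with the sample as a block, tests whether the change from P0 to adult differs between them. It was called for 870 of 25697 genes, 474 with the PCT change below that of PST (1.84%) and 396 above (1.54%). PST held 83 and 112 nuclei at P0. Without P0 sample 1 or 2, 150 and 191 genes were called. In the lists 23 genes were called, of which 6 were called without P0 sample 1 and 7 without P0 sample 2. Mep1b, Slc22a7 and Slc38a3 were called in both of these fits. Those named beyond the naming rule were chosen after their values were seen.

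Of the 4 largest differences in the lists, 3 were in genes that fell in PCT and had a PST change above 0. Mep1b stood at 37.9 and 39.2 in PCT and at 66.6 and 76.5 in PST at P0. In the adult it had fallen to 7.12, 11.8 and 6.31 in PCT and stood at 134, 114 and 120 in PST, a difference of stage changes of −2.98 ± 0.27 (adjusted p = 5.57e-05). Slc22a7 behaved alike, with PST rates of 50.9 and 48.3 at P0 and 76.5, 65.2 and 88.2 in the adult against the fall in PCT given above (−2.63 ± 0.27, adjusted p = 0.000104). Slc38a3 held 85.99, 72.4, 90.8, 79.8 and 82.8 in PST, and the fall in PCT set the difference (−1.70 ± 0.23, adjusted p = 0.000895). Thus the PCT and PST rates of these 3 genes lay nearer to each other at P0 than in the adult.

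Slco4c1, an organic anion transporter gene, had 15.3 and 16.1 in PCT and 52.1 and 36.2 in PST at P0, and 7.56, 13.01 and 6.65 against 108, 97.1 and 71.8 in the adult (−1.84). The change in PCT did not pass the test by itself (adjusted p = 0.149). The other 9 genes with a PCT change below that of PST were G6pc (−1.65), Slco1a6 (−1.30), Slc5a8 (−1.17), Flt1 (−1.14), Slc6a18 (−1.12), Slc17a1 (−1.08), Mme (−0.90), Atp11a (−0.89) and Mep1a (−0.78). Slc17a1 and G6pc rose in both segments, more so in PST, where G6pc had 4.84 and 4.02 at P0 and 21.8, 19.6 and 19.0 in the adult.

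In 10 genes the difference went the other way, among them Slc7a8, Prodh2 and Gatm, whose PCT rates were above those of PST. Slc7a8 rose in PCT from 123 and 119 to 179, 195 and 216, while PST had 78.7 and 63.4 at P0 and 50.98, 49.99 and 47.8 in the adult (1.26 ± 0.19, adjusted p = 0.00151). Prodh2 stood at 63.1, 66.7, 87.6, 52.9 and 87.9 in PCT with overlap between stages, and at 24.2, 15.1, 12.4, 6.28 and 9.58 in PST (1.36, adjusted p = 0.0188). Gatm, the first enzyme of creatine synthesis, stood at 68.3, 63.1, 82.4, 67.6 and 85.4 in PCT and at 26.6, 34.2, 18.7, 18.6 and 15.2 in PST (1.14, adjusted p = 0.0276). Others were Slc16a10 (0.87), Hes1 (0.70), Slc8a1 (0.96), Ccnd1 (1.04), Aqp3 (1.34) and Sox4 (1.51).

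Without the P21 sample and P56 sample 2, 2005 genes were called, 809 of the 870 among them, and 868 of the 869 that could be fitted kept their sign. Gatm and Ccnd1 were then no longer called (adjusted p = 0.0711 and 0.0873). Against the loop of Henle, a more distant tubule cluster, the stage change differed for 9356 of 27139 genes, 15.6% below and 18.9% above. The loop of Henle held 635 and 652 nuclei at P0, more than PST, and the part of nuclei numbers in the 2 counts was not tested. Slc5a2 rose in PCT relative to the loop of Henle by 2.01 and Hnf4a by 1.21, whereas Slc34a1 did not pass (0.76, adjusted p = 0.135). Without those 2 libraries all 3 were called above the loop of Henle, and Slc34a1 was also called above PST (0.78, adjusted p = 0.00263), which it was not over all samples (0.90, adjusted p = 0.145).

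**Figure D5:**
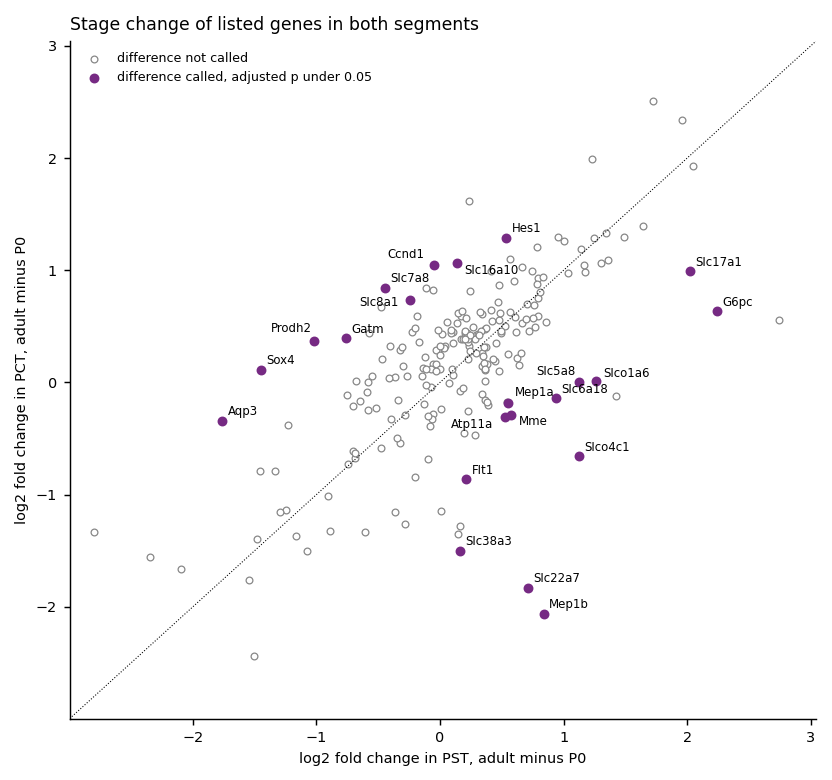
Log2 fold change of gene activity from P0 to adult in PST (horizontal axis) and PCT (vertical axis) for listed genes, with filled points where the difference of both changes passed an adjusted p of 0.05 and the dotted line where they are equal. Mep1b, Slc22a7 and Slc38a3 lie below 0 in PCT and above 0 in PST, and Slc7a8, Gatm and Prodh2 lie above 0 in PCT and below 0 in PST.

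Single PCT nuclei were also described by their leading peaks. The median nucleus had 2.09% and 2.17% of its open peaks among PCT-leading peaks at P0 and 3.21%, 3.101% and 3.26% in the adult. The SD over nuclei was 0.440 to 0.575, and no nucleus had none. These peaks were chosen from the same nuclei, by means over 3 adult and 2 P0 samples. Nothing is therefore read from the difference between stages or from the lack of nuclei with none. From the 5th to the 95th percentile of nuclei the share ran from 1.21% to 2.85% in P0 sample 2 and from 2.24% to 4.10% in P56 sample 2. Nuclei of each sample were put in 4 equal classes by their number of open peaks. From the lowest to the highest class the median share went from 2.03% to 2.17% and from 2.25% to 2.04% in the P0 samples, from 3.26% to 3.13% at P21, and from 3.23% to 2.96% and from 3.35% to 3.18% in the P56 samples. Open chromatin at the 3 marker loci, counted as any peak open, rose with depth. The Slc34a1 locus was open in 81.5% to 96.0% of PCT nuclei over samples. The Hnf4a locus was open in 76.9% to 93.9% and the Slc5a2 locus in 19.2% to 38.9%. These loci include the 20 kb on each side, so peaks at neighbouring genes such as Tgfb1i1 were counted too. The values are therefore not those of the marker genes alone. All 3 loci were open in 19.4% and 15.6% of nuclei at P0 and in 31.7%, 19.0% and 37.3% in the adult, and none in 1.09% to 6.95%. In P56 sample 2 all 3 were open in 17.9% of the shallowest class and 53.7% of the deepest, so that a closed locus in a nucleus is not shown to be closed.

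A further 446 nuclei carry the label PT_out and were in none of the comparisons. Their Slc34a1 start peak was open in 26 of them, 5.83% (exact 95% interval 3.84% to 8.43%, counting error only), from 1.92% in the P21 sample to 12.7% in P0 sample 1, and 1.71% of their open calls lay in PCT-leading peaks.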

How the data were processed

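Kidney nuclei of 5 snATAC-seq samples were analysed. Per the labels and the methods, the authors aligned reads with Cell Ranger ATAC 1.1.0 to mm10 (GRCm38), kept barcodes by fragment number, promoter ratio and mitochondrial share, clustered nuclei on 5 kb bins after a batch correction by library, and ran MACS2 for each cell type with the fragments of all samples together. The deposited values are counts of 1 or 0 per peak and nucleus (open calls, binarized by the authors). The deposited annotation table (unit other) gives the cluster and library of each nucleus. Binarization removes differences in fragment number, and pooled peak calling favours elements of large clusters. The single-cell RNA-seq annotation was used for cell shares only. The 2-dimensional embeddings were not used, and bulk ATAC-seq was not analysed here.

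Open calls were summed per sample and cluster, and over genes with 2 kb upstream (GENCODE M21). Stage was tested with edgeR 4.0.16 (R 4.3.3), TMM scaling, its filter on low counts (10 calls, 15 in total), a quasi-likelihood fit and Benjamini-Hochberg adjustment over all features, and an adjusted p under 0.05 was called. P21 and P56 were 1 group. Interactions with PST and loop of Henle had the sample as a block. Exact permutation tests (scipy 1.17.1, two-sided) were used for single values. The fits were tested on simulated data first. PCT against other clusters had no test. Floors are 3 calls over a group, and intervals (95%, exact binomial) cover counting error only. Alternatives were DESeq2 1.42.0, its size factors, no filter, equal nuclei, nuclei thinned to 1000 open peaks, a start window, each sample left out and a replicate block.

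The nuclei, gene lists and tests were chosen with earlier results of these data known. Genes named were the 3 markers with peaks in 20 kb on each side, up to 4 members per list by the smallest p, the 10 PCT-leading peaks and genes with the largest ratios, the 5 peaks and 10 genes per direction with the largest stage changes, and list members with a called difference from PST. Slc34a1, Hnf4a and Pdzk1 stand under another list as well. Lrp2, Cubn, Gldc, Bhlhe41, Six2 and C1qb were named after their values were seen. Some listed genes are not reported here. Sequences come from the mm10 genome.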

Additional observations from a re-analysis of the deposited data

Results flagged for a closer look

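The change from P0 to adult differed between PCT and PST for 870 genes and between PCT and the loop of Henle for 9356, each by a test of the difference itself (edgeR, sample as a block, adjusted p under 0.05). Among listed genes, the PCT change was below that of PST (log2, PCT minus PST) for Mep1b (−2.98), Slc22a7 (−2.63), Slco4c1 (−1.84), Slc38a3 (−1.70), G6pc (−1.65), Slco1a6 (−1.30), Slc5a8 (−1.17), Flt1 (−1.14), Slc6a18 (−1.12), Slc17a1 (−1.08), Mme (−0.90), Atp11a (−0.89) and Mep1a (−0.78). It was above that of PST for Hes1 (0.70), Slc16a10 (0.87), Slc8a1 (0.96), Ccnd1 (1.04), Gatm (1.14), Slc7a8 (1.26), Aqp3 (1.34), Prodh2 (1.36) and Sox4 (1.51). Against the loop of Henle it was above for Slc5a2 (2.01) and Hnf4a (1.21).

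The 446 PT_out nuclei lay outside every comparison, and 5.83% of them had the Slc34a1 start peak open, from 1.92% in the P21 sample to 12.7% in P0 sample 1, and PCT nuclei had it open in 22.5% to 50.6% over samples.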

How the results depend on the processing

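Between stages 39222 peaks were called. Fits of their own called 24221 with equal numbers of nuclei and 5088 with nuclei thinned to 1000 open peaks, and leaving out 1 sample gave 13129 to 39872. For genes 7627 were called, and the fits of the alternatives called 2052 when thinned, 3878 in the start window, 11462 without P21 sample 1 and P56 sample 2 (an alternative chosen after seeing the data), and 1499 to 11158 with 1 sample left out. For the difference from PST, 870 genes became 388 with DESeq2, 2005 without those 2 libraries and 150 to 1304 with 1 sample left out. For the loop of Henle, 9356 became 4714 with DESeq2 and 3645 to 10252. The lowest count of peaks came with thinning. The lowest counts for genes and for both differences came without P0 sample 1 or 2. There the lone P0 sample was assumed to vary like the others. Losses of the call among named genes and among named peaks were also most numerous without P0 sample 1 or 2. Without a filter, 33374 peaks were higher in the adult and 17385 at P0. The value of median open peaks per PCT nucleus between P0 and adult, −641, ranged from −1557.5 to 213, and was 72.5 without P56 sample 1. PCT-leading peaks, 1485, became 979 on the share scale, 3453 with no fold minimum, 614 when thinned and 6537 without PST, and PCT-leading genes, 54, became 384 with no fold minimum. Of the 1485 peaks, 839 were among the 979 and 394 among the 614. The HNF4 share of 3.70% was 6.26% over whole peaks. Thinning turned the stage change of the peak at chromosome 13 from 55398224 (Slc34a1) to −0.00827 and the stage change of the peak at chromosome 2 from 163555257 (Hnf4a) to −0.18, and the start window turned the stage change of Slc4a4 to −0.19. The cause was not tested. Of 1469 values for named genes under alternatives, 1315 stayed on the same side of the threshold. So did 707 of 864 for named peaks and 113 of 161 for the 23 listed differences from PST. Direction was checked only where either fit called the change, so values called in neither may have turned sign. Of the 23 differences, 15 stayed called with DESeq2. Sample numbers are only names: same-numbered samples correlated at 0.17 (genes) and 0.081 (peaks) over 2 pairs. For P0 against P56 the fit with the replicate block called 43795 peaks and 9579 genes, against 37724 and 6548 without it. PCT sums of 547 nuclei at P0 limit what low peaks can show.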
